A study of Mus musculus with 4 samples.

Results

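The 55 genes described here code for the translation initiation factors of the mouse, regulators that share the Eif name, and the kinases that act on eIF2. They are the symbols of the deposited RefSeq table that begin with Eif and a digit of 1 to 6, taken without any filter on level, and they are 55 of the 19797 symbols in that table. The material was MC1-ZE7, an embryonic stem (ES) cell line of strain MC1 (129S6/SvEvTac) in which the fluorescent protein Emerald reports Zscan4, a gene cluster active in 2-cell embryos and, at any time, in a small share of ES cells. Cells grew without feeders in serum with leukemia inhibitory factor (LIF), were sorted by Emerald fluorescence, and gave 2 total RNA libraries of Emerald-positive cells (Em+, the high fraction) and 2 of Emerald-negative cells (Em-). The groups differ in the gate alone. They share the line, the reporter and the medium, and no agent was added. The labels do not state whether replicates were grown or sorted separately, so the p-values below reflect library-to-library spread, which may be technical.

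Initiation places the ribosome on the start codon of a messenger RNA. eIF2, with GTP, carries the initiator tRNA to the small ribosomal subunit, where eIF1, eIF1A, eIF3 and eIF5 also bind. The eIF4 factors bring in the capped end of the messenger RNA, eIF2B recharges eIF2 with GTP, and eIF5B joins the large subunit. Phosphorylation of eIF2 by any of its kinases blocks eIF2B and lowers initiation in general, while a few messenger RNAs such as that of Atf4 are then translated more. That program is called the integrated stress response.

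The RefSeq table gave 17927765 and 16468218 counts in Em+ replicates 1 and 2, against 18364973 and 18953217 in Em- replicates 1 and 2. The counts of Em- replicate 1 were computed from FPKM. The description field of all 4 samples names the opposite fraction from the title and the cell type, and groups were taken from the titles. The 8 listed markers of Zscan4-positive cells summed to 76.5 and 80.8 scaled FPKM in the libraries titled Em+, against 0.496 and 0.784 in those titled Em-. The 10 listed ES cell markers summed to 1937 and 1671 scaled FPKM in Em+ and to 1991 and 1961 in Em-, with Nanog higher (log2 fold change 0.48, edgeR adjusted p 0.0192) and Lin28a lower (-0.44, adjusted p 0.0451). Of the 9 fibroblast markers, 5 are in the table, and they summed to 6.18 and 6.00 scaled FPKM in Em+ and to 3.23 and 3.45 in Em-. Most of this was Thy1, with 5.66 and 5.39 in Em+ and 2.90 and 3.09 in Em-. Thy1 alone was tested and was higher in Em+ (log2 fold change 0.89, edgeR adjusted p 0.00386). Col1a1, Col1a2, Col6a3 and Pdgfra had at most 0.303 in any library. No listed marker of primitive endoderm, trophoblast, mesoderm and epiblast, or neural cells was called, but few were tested. Tested were 1 of 6, 3 of 6, 1 of 4 and 2 of 4 in the table, in that order. Nearest the threshold were Otx2 (log2 fold change -0.40, edgeR adjusted p 0.0596) and Tubb3 (0.45, adjusted p 0.0637). Replicates were further apart in Em+ than in Em-, with a biological coefficient of variation of 0.100 in Em+ and 0.0304 in Em-. The part of these differences in the results below was not tested. Scaled FPKM is the deposited FPKM (counts scaled for transcript length and for the library's reads) divided by 1 factor per library, between 0.872 and 1.06, which sets the libraries to the scale of the test. It is per length, so that genes can be set side by side, but levels also depend on the transcript models of the table used.

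Several initiation factors exist as pairs of similar genes, and their values are separate measurements only if reads tell the copies apart. To show how far they differ, a stretch of 90 coding bases is given for both genes of 3 pairs, from the GENCODE M21 transcripts on GRCm38 (mm10), with the bases that differ between the pair in capitals. Eif2s3y lies on chromosome Y (chrY:1011840-1011929 for this exonic stretch, plus strand) and Eif2s3x on chromosome X (chrX:94209574-94209663, minus strand), and both code for the gamma subunit of eIF2. Eif4a1 (chr11:69670658-69670747, minus strand) and Eif4a2 (chr16:23108719-23108808, plus strand) code for the RNA helicase eIF4A. Eif5a (chr11:69919226-69919315, minus strand) and Eif5a2 (chr3:28782052-28782141, plus strand) code for eIF5A, which carries the modified amino acid hypusine.
Eif2s3y: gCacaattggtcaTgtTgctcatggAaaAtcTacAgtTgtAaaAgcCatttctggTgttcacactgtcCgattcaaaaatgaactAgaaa
Eif2s3x: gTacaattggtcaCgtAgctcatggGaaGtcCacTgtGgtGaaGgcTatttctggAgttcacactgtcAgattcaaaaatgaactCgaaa
Eif4a1: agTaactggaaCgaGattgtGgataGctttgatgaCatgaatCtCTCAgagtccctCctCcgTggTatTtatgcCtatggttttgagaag
Eif4a2: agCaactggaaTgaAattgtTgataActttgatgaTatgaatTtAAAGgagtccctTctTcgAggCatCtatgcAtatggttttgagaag
Eif5a: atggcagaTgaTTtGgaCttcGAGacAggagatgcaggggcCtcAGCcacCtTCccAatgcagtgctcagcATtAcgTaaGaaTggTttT
Eif5a2: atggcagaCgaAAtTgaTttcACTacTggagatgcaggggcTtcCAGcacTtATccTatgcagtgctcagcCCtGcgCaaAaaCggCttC

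The stretches differ at 14, 17 and 25 of 90 bases for the eIF2 gamma, eIF4A and eIF5A pairs. Over the whole coding sequence, Eif2s3y and Eif2s3x were 86.3% identical, Eif4a1 and Eif4a2 78.2%, and Eif5a and Eif5a2 73.2%. None of the 3 pairs shared a run of 50 coding bases. The read length is not given in the sources used here.

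Few of the initiation factor genes tested were called as different between the fractions, as was so for all genes tested. Of the 50 members with a mean deposited FPKM of at least 1, which were tested, 1 rose in Em+ and none fell (edgeR quasi-likelihood fit, p under 0.05 after Benjamini-Hochberg adjustment). The gene that rose was Eif2ak1, the eIF2 kinase also known as HRI, which senses a lack of heme. The share called was 2.00%, against 4.64% of the 12050 genes tested (3.82% higher and 0.822% lower in Em+). DESeq2 called 1 other member higher and none lower, and limma called none. At an unadjusted p under 0.05, edgeR counted 4 members higher and 7 lower, 22.0% of those tested, against 25.3% of all genes. The 4 were Eif2ak1, Eif4ebp3, Eif4g1 and Eif4g2, and the 7 were Eif1ax, Eif2a, Eif3a, Eif3g, Eif4a2, Eif4b and Eif5a. Eif4g3, below the level tested, had a log2 fold change of 0.78 with no filter on level (edgeR adjusted p 0.0542).

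The sizes were near those of all genes tested. The median log2 fold change (Em+ over Em-) was -0.05 over the 50 members and 0.00 over all genes tested, and the median size without sign was 0.11 against 0.14. For 45 of the 50 members, or 90%, the 95% interval of the log2 fold change lay within 0.5 of zero on either side, a 1.41-fold difference. The share was 69.3% over all genes tested. It depends on the width of the intervals as well as on the size of the differences. The median SE was 0.083 over the members and 0.095 over all genes tested. Both Em+ libraries lay above both Em- libraries for 13 members and below them for 21, and the groups overlapped for 16. Of all genes tested, 59.4% did not overlap, with 29.8% above and 29.6% below. In sorted bulk samples, fewer cells of a type and less RNA per cell cannot be told apart. Summed over the 55 genes, the level was 1752 ± 104 scaled FPKM in Em+ and 1868 ± 10.9 in Em- (SD, n = 2 each).

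**Figure D1:**
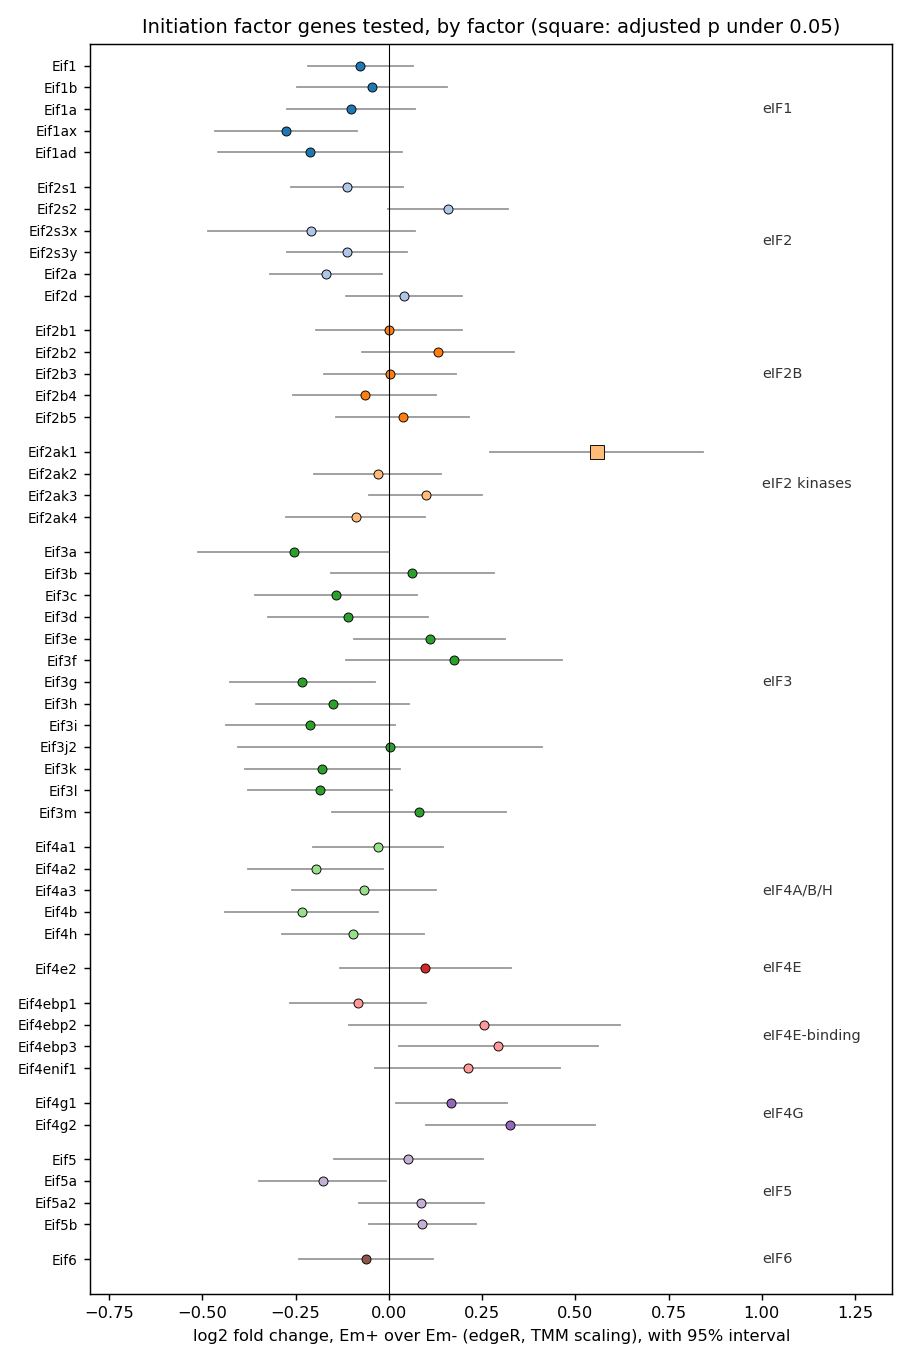
Log2 fold change of Em+ over Em- for the 50 initiation factor genes tested, grouped by factor, each with its 95% interval (horizontal line) from edgeR with TMM scaling. Eif2ak1, at 0.56, is the square with an adjusted p under 0.05, and 45 of the 50 intervals lie within 0.5 of zero.

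The members covered a wide range of levels. Of the 50 tested, 14 had a mean of at least 50 scaled FPKM over the 4 libraries, 22 lay between 10 and 50, and 14 lay below 10. Their median was 20.3 scaled FPKM, against 6.88 over all genes tested. In the RefSeq table the most abundant were Eif5a, Eif4b, Eif4a1, Eif4ebp1, Eif3a and Eif3k, in that order. Here and below, the most abundant gene of a group is the one with the highest mean over the 4 libraries in that table. Eif4b, at a mean of 111.9, and Eif4a1, at 110.8, are neighbours in the RefSeq table whose order differed by group, with Eif4a1 the higher in both Em+ libraries and Eif4b in both Em- libraries.

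The kinases of eIF2 held the one called gene. Eif2ak1 (chr5:143871862-143902717, mm10, 1 RefSeq transcript) had 258 and 262 counts in the Em+ libraries, against 192 and 198 in the Em- libraries. This corresponds to 2.68 and 3.08 scaled FPKM in Em+ and to 1.97 and 1.94 in Em-. Both Em+ libraries were above both Em- libraries. The log2 fold change was 0.56 (SE 0.12, 95% interval 0.27 to 0.84), a 1.47-fold difference, with an adjusted p of 0.0488 from edgeR. The call lay at the threshold: the adjusted p was 0.0740 with DESeq2, 0.113 without Em- replicate 1 and 0.115 without Em- replicate 2, while without Em+ replicate 1 or 2 it was 0.0021 or 0.031. Library totals behind FPKM as the scale gave 0.158, and both limma fits gave 0.207 or more. In the deposited known-gene table the log2 fold change was 0.53 (adjusted p 0.0680). In the Ensembl table, which splits the gene over 3 transcripts and gave 82 and 92 counts in Em+ against 99 and 49 in Em-, the groups overlapped, and the log2 fold change was 0.37 (adjusted p 0.536).

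A gene within the span of Eif2ak1, on the opposite strand in GENCODE, had a value of similar size. Ankrd61 (chr5:143890743-143895067), which codes for an ankyrin repeat protein, had 95 and 86 counts in Em+ and 63 and 58 in Em-, a log2 fold change of 0.72 (SE 0.17, adjusted p 0.0560). Aimp2, a scaffold protein of the tRNA synthetase complex whose gene overlaps the end of Eif2ak1, had a log2 fold change of -0.08 (adjusted p 0.582). Whether counting used the strand is not given in the sources used here, so reads from exons that overlap on opposite strands cannot be told apart. In GENCODE the 2 transcripts of Ankrd61 that match the deposited span share 0 exonic bases with Eif2ak1, and a longer one shares 172. The longest transcript of Aimp2 shares 487. The part of such reads in the value of Eif2ak1 was not tested.

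The other kinases are Eif2ak3 (PERK, which senses unfolded protein in the endoplasmic reticulum), Eif2ak2 (PKR, which binds double-stranded RNA) and Eif2ak4 (GCN2, which senses uncharged tRNA). None was called. Eif2ak3, the most abundant, had 10.4 and 10.4 scaled FPKM in Em+ and 9.89 and 9.59 in Em-, a log2 fold change of 0.10 (SE 0.06, adjusted p 0.369). Both Em+ libraries were above both Em- libraries, by less than 1 unit. Eif2ak2 had a log2 fold change of -0.03 and Eif2ak4 of -0.09. Eif2ak1 had the lowest level of the 4.

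eIF1 and eIF1A guide the scan for the start codon, and all 5 genes of this group had lower values in both Em+ libraries than in either Em- library, against 29.6% of all genes tested. None was called, but the sign of each of the 5 held under every alternative processing run. Eif1ax, the X-linked gene for eIF1A (chrX:159372195-159385699), had the highest mean over the 4 RefSeq libraries and the largest difference. Eif1 was as high in Em+, at a mean of 62.4 scaled FPKM against 61.5 for Eif1ax, and in the Ensembl table Eif1ax lay below Eif1, at 32.5 against 137.9 FPKM. Eif1ax had 66.0 and 57.0 scaled FPKM in Em+ and 74.8 and 74.0 in Em-, a log2 fold change of -0.27 (SE 0.08, 95% interval -0.47 to -0.08, adjusted p 0.101). Em+ replicate 2 was the lowest of the 4 libraries. Eif1ad, a relative of eIF1A known from human cells for a role in ribosome assembly, had 15.0 and 12.1 scaled FPKM in Em+ and 15.7 and 15.7 in Em-, a log2 fold change of -0.21 (adjusted p 0.256). Eif1 and Eif1b, which code for eIF1 and a near copy, had log2 fold changes of -0.08 and -0.05.

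Eif1a had 57.7 and 52.5 scaled FPKM in Em+ and 58.2 and 60.0 in Em-, a log2 fold change of -0.10 (SE 0.07, adjusted p 0.416). It is an autosomal copy of the eIF1A gene. Outside the members, a cluster of genes on chromosome 12 resembles Eif1a, and the 5 tested with a coding sequence in GENCODE (Gm8300, Gm4027, Gm2016, Gm2022 and Gm5662) were 93.8 to 95.1% identical to it over 432 coding bases. Gm8300 had 56.4 and 57.2 scaled FPKM in Em+ and 0.154 and 0.404 in Em-, so in Em+ its level was near that of Eif1a itself. These genes shared 27 to 54 of the 713 runs of 50 bases in Eif1a, and reads from such runs cannot be told apart. How such reads were handled is not given in the sources used here.

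eIF2 consists of an alpha, a beta and a gamma subunit, and the genes did not move one way. Eif2s2, for the beta subunit, was the most abundant and had 49.1 and 45.9 scaled FPKM in Em+ and 41.5 and 43.6 in Em-. Both Em+ libraries were above both Em- libraries, and the log2 fold change was 0.16 (SE 0.07, adjusted p 0.202). Eif2s1, for the alpha subunit that the kinases phosphorylate, had 36.9 and 35.4 scaled FPKM in Em+ and 38.4 and 39.8 in Em- (log2 fold change -0.11, adjusted p 0.315). Eif2a and Eif2d, which are not subunits of eIF2 but can deliver tRNA in other ways, had log2 fold changes of -0.17 and 0.04.

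In the RefSeq table, most RNA listed for the gamma subunit was that of the chromosome Y gene. Eif2s3y had 19.4 and 19.6 scaled FPKM in Em+ and 21.0 and 21.2 in Em-, a log2 fold change of -0.11 (SE 0.07, adjusted p 0.343). Eif2s3x had 1.18 and 1.23 scaled FPKM in Em+ and 1.37 and 1.41 in Em-, a log2 fold change of -0.21 (SE 0.12, adjusted p 0.308). These levels rest on 159 and 146 counts in Em+ and 187 and 201 in Em-. The part of reads with several matches in them was not tested. Both genes lay lower in both Em+ libraries. The ratio of Eif2s3y to Eif2s3x was 16.4 and 15.9 in Em+ and 15.3 and 15.0 in Em-. It was 16.4 in the Ensembl table and 7.03 in the known-gene table, as ratios of means over the 4 libraries.

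eIF2B, the exchange factor that eIF2 phosphorylation blocks, had no called gene. Its 5 subunit genes summed to 68.3 ± 4.06 scaled FPKM in Em+ and to 67.1 ± 0.0631 in Em- (SD, n = 2 each). Eif2b5, for the catalytic epsilon subunit and the most abundant, had 29.2 and 26.0 scaled FPKM in Em+ and 26.3 and 27.5 in Em-. The groups overlapped, and the log2 fold change was 0.04 (SE 0.08, 95% interval -0.14 to 0.21, adjusted p 0.792). Eif2b2, for the beta subunit, had the largest difference, with 10.3 and 9.85 scaled FPKM in Em+ and 9.71 and 8.67 in Em- (log2 fold change 0.13, SE 0.09, adjusted p 0.375). Eif2b1, Eif2b3 and Eif2b4 had log2 fold changes of 0.00, 0.00 and -0.06.

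eIF3 is the largest of the factors and the scaffold on which the others assemble. No subunit gene was called among the 13 tested, of which 8 had a negative and 5 a positive log2 fold change, with a median of -0.14. Eif3a, for the largest subunit, was both the most abundant and the most different, with 83.0 and 67.3 scaled FPKM in Em+ and 89.8 and 89.6 in Em-. Both Em+ libraries were below both Em- libraries, but they also lay further from each other than Em+ replicate 1 did from Em-. The log2 fold change was -0.26 (SE 0.11, adjusted p 0.197). Eif3g, a subunit that binds RNA, had 48.8 and 42.3 scaled FPKM in Em+ and 52.2 and 54.9 in Em- (log2 fold change -0.23, adjusted p 0.149).

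In the RefSeq table the subunit genes split by level. Of the 9 with a mean of at least 20 scaled FPKM (Eif3a, Eif3c, Eif3d, Eif3f, Eif3g, Eif3h, Eif3i, Eif3k and Eif3l), 8 had a negative log2 fold change, and in these 8 Em+ replicate 2 was the lowest of the 4 libraries. The exception was Eif3f, with 38.8 and 51.8 scaled FPKM in Em+ and 39.5 and 40.7 in Em- (log2 fold change 0.17, SE 0.12, adjusted p 0.407), where Em+ replicate 2 alone was high. Of the 4 below that level, Eif3b, Eif3e and Eif3m had values of 0.06, 0.11 and 0.08, and Eif3j2 of 0.00. The RefSeq entry named Eif3j2 has other counts than the entries of that name in the known-gene and Ensembl tables. The known-gene table lists its counts under Eif3j1, at 1.65 FPKM, and gives Eif3j2 66.6 FPKM (log2 fold change -0.05). The Ensembl table gives Eif3j2 24.3 FPKM (-0.02). The level of 20 was chosen after the values were seen, and the split is a description. How reads with several matches were counted is not given in the sources used here. Their part in these levels was not tested. Without Em+ replicate 2, Eif3j2 was at -0.24, Eif3f at -0.05, Eif3b at -0.01 and Eif3d at 0.01. The sum over eIF3 was 589 and 521 scaled FPKM in Em+, against 611 and 619 in Em-.

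**Figure D2:**
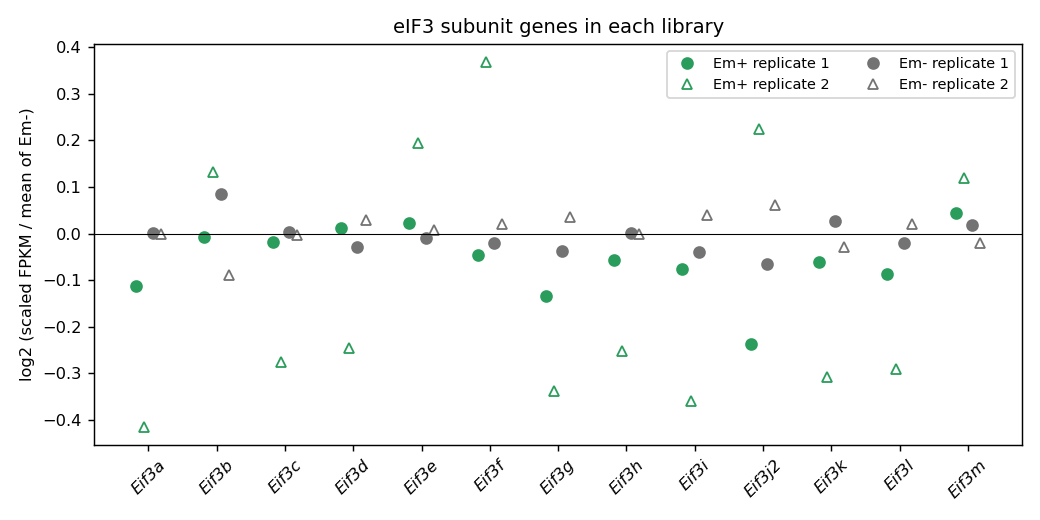
Level of each eIF3 subunit gene tested in each library, as log2 of scaled FPKM over the mean of the Em- libraries (Em+ green, Em- grey; filled circles replicate 1, open triangles replicate 2). Em+ replicate 2 sits farthest from zero for most subunits, below it for 8 genes and above it for 5, Eif3f the highest, while the Em- libraries lie close together.

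Eif3j1 and Eif3j2, for the loosely bound j subunit, are not separate measurements. Their coding sequences were 100% identical over 783 aligned bases, and the RefSeq table places both at chr2:122028580-122053632 or within it. Eif3j2 was listed with 126 and 153 counts in Em+ and 144 and 164 in Em-, and Eif3j1 with 1 and 3 in Em+ and 2 and 3 in Em-. The known-gene table gives the counts of 126, 153, 144 and 164 to Eif3j1 instead, and lists Eif3j2 with 2087 and 1568 in Em+ and 1996 and 2128 in Em-.

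eIF4A, eIF4B and eIF4H unwind the messenger RNA, and all 5 genes of this group had a negative log2 fold change. For Eif4a1 and Eif4a3 the sign changed without Em+ replicate 2, to 0.04 and 0.00. Eif4b, which helps the helicase eIF4A, was the most abundant and the most different. It had 108.7 and 97.0 scaled FPKM in Em+ and 119.0 and 122.9 in Em-, a log2 fold change of -0.23 (SE 0.09, 95% interval -0.44 to -0.03, adjusted p 0.159). Both Em+ libraries were below both Em- libraries. Eif4a1 had 114.9 and 104.4 scaled FPKM in Em+ and 110.0 and 113.7 in Em-, overlapping, with a log2 fold change of -0.03 (adjusted p 0.842). Eif4a2 had 16.6 and 15.0 scaled FPKM in Em+ and 18.5 and 17.7 in Em-, a log2 fold change of -0.20 (adjusted p 0.174). Eif4a3, the helicase of the exon junction complex, and Eif4h, the partner related to eIF4B, had values of -0.07 and -0.10.

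eIF4G is the scaffold that links the cap, the helicase and eIF3. For the 2 genes tested, Eif4g1 and Eif4g2, both Em+ libraries lay above both Em- libraries, against 29.8% of all genes tested. Neither was called. Eif4g3 was below the level tested, and its Em+ libraries also lay above its Em- libraries. Eif4g1, for the main form, had 35.3 and 34.7 scaled FPKM in Em+ and 31.3 and 31.1 in Em-. The replicates lay close in both groups, and the log2 fold change was 0.17 (SE 0.06, 95% interval 0.02 to 0.32, adjusted p 0.162). Eif4g2, also called DAP5 or NAT1, lacks the binding site for eIF4E and serves initiation that does not need the cap complex. It had 49.8 and 58.5 scaled FPKM in Em+ and 42.1 and 44.2 in Em-, with no overlap, a log2 fold change of 0.33 (SE 0.10, 95% interval 0.10 to 0.55) and an adjusted p of 0.101 with edgeR. With DESeq2 its adjusted p was 0.0347. Leaving out Em+ replicate 1 gave 0.44, and leaving out Em+ replicate 2 gave 0.20.

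Eif4g3, the third eIF4G gene, had 198 and 288 counts in Em+ and 142 and 159 in Em-, or 0.849 and 1.40 scaled FPKM in Em+ and 0.599 and 0.644 in Em-. Em+ replicate 2 was the highest. With no filter on level the log2 fold change was 0.78 (SE 0.20, adjusted p 0.0542), and it was 0.83 in the known-gene table (adjusted p 0.127) and 1.03 in the Ensembl table (adjusted p 0.0619). The 3 genes summed to 85.9 and 94.7 scaled FPKM in Em+ and to 74.0 and 76.0 in Em-.

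**Figure D3:**
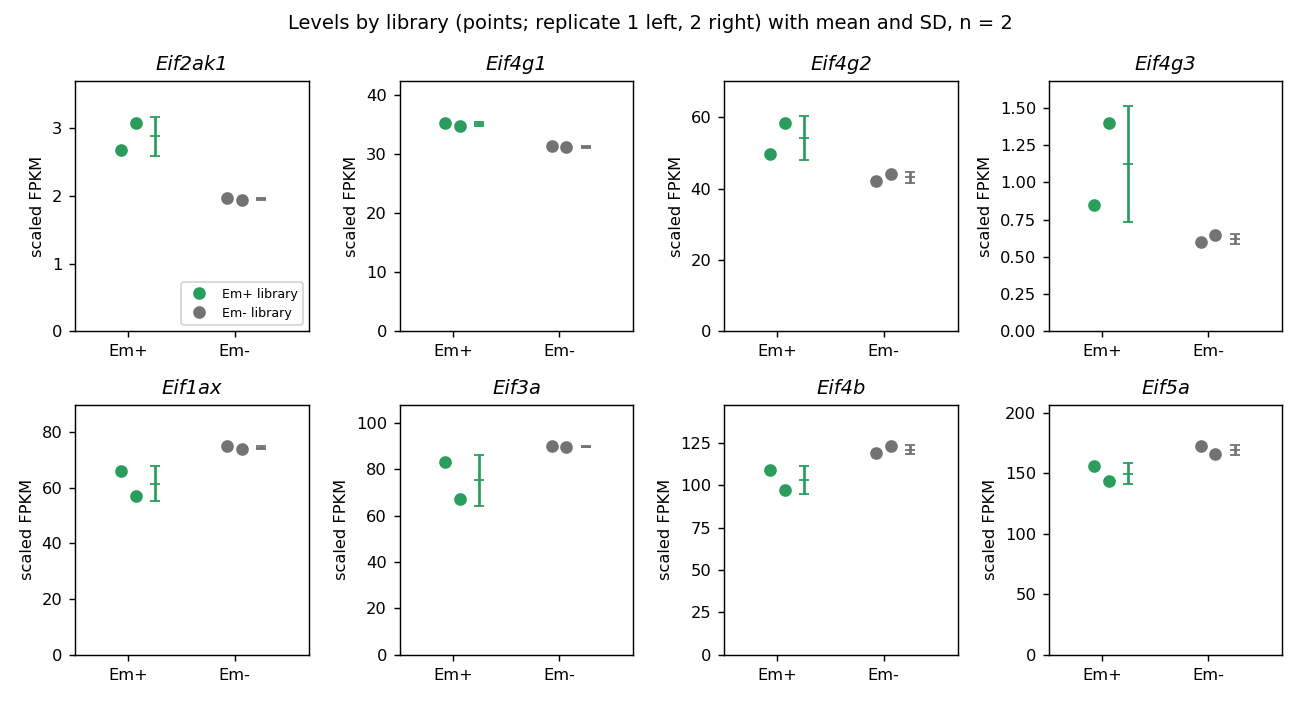
Scaled FPKM in each library for 8 initiation factor genes, with Em+ (green) left of Em- (grey) and the mean and SD of 2 libraries beside the points. The Em+ points lie above the Em- points for Eif2ak1 and the 3 eIF4G genes, and below them for Eif1ax, Eif3a, Eif4b and Eif5a.

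The cap-binding protein eIF4E and the proteins that block it gave no call. Eif4e itself had 9 and 7 counts in Em+ and 5 and 2 in Em- in each of the 4 deposited tables. In the RefSeq and Ensembl tables the count of Em- replicate 1 was computed from FPKM. Since eIF4E is used by every cell, the entry was read as no measure of its level, and no fold is given. Eif4e2, a related cap-binding protein, was the only eIF4E gene tested, with 18.8 and 15.6 scaled FPKM in Em+ and 15.8 and 16.4 in Em- (log2 fold change 0.10, SE 0.10, adjusted p 0.560). Eif4e3 had 69 and 66 counts in Em+ and 92 and 82 in Em-, and Eif4e1b, an oocyte form, had at most 1 in any library.

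Among the eIF4E-binding genes, Eif4ebp1, the repressor controlled by mTOR, was the most abundant, with 99.3 and 87.0 scaled FPKM in Em+ and 98.6 and 98.7 in Em- (log2 fold change -0.08, SE 0.08, adjusted p 0.535). Eif4ebp3, a smaller relative, had the largest difference, with 6.06 and 5.55 scaled FPKM in Em+ and 4.74 and 4.74 in Em-. The groups did not overlap, and the log2 fold change was 0.29 (SE 0.11, 95% interval 0.03 to 0.56, adjusted p 0.169). Eif4ebp2 had 10.4 and 14.9 scaled FPKM in Em+ and 10.3 and 10.8 in Em-, so its value of 0.26 came from Em+ replicate 2, and it was -0.03 without that library. Eif4enif1, which carries eIF4E into the nucleus, had a log2 fold change of 0.21 (adjusted p 0.254).

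Of the eIF5 genes, Eif5a was the most abundant member of all in the RefSeq table. It had 155.7 and 143.4 scaled FPKM in Em+ and 172.1 and 166.2 in Em-, with no overlap, a log2 fold change of -0.18 (SE 0.07, 95% interval -0.35 to -0.01) and an adjusted p of 0.186. Its paralog Eif5a2 had 7.83 and 7.40 scaled FPKM in Em+ and 7.24 and 7.11 in Em- (log2 fold change 0.09, adjusted p 0.476). The ratio of Eif5a to Eif5a2 was 19.9 and 19.4 in Em+ and 23.8 and 23.4 in Em-. Eif5, the GTPase-activating protein of eIF2, and Eif5b had log2 fold changes of 0.05 and 0.09. Eif6, which keeps the ribosomal subunits apart, had 21.0 and 20.1 scaled FPKM in Em+ and 21.9 and 20.9 in Em- (log2 fold change -0.06, SE 0.08, adjusted p 0.651).

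Which members differed depended on the Em+ library used. Without Em+ replicate 1, 8 members were called higher and 19 lower, against 21.9% and 19.5% of all genes tested. Without Em+ replicate 2, 5 were called higher and 4 lower, against 9.43% and 6.9%. Called in both were Eif2ak1, Eif4g1 and Eif4g2 as higher and Eif1ax, Eif3a, Eif4b and Eif5a as lower. Without either Em- library, none was called. These fits take the lone library to vary as the other group does. Between the Em+ libraries, 36 of the 50 members were higher in replicate 1, with a median log2 ratio of 0.09, against 0.01 over all genes tested. For eIF3 the median was 0.20.

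Levels also depended on the transcript models. Across the 4 deposited tables (RefSeq, known gene, ENCODE and Ensembl), the mean FPKM of 23 members stayed within 1.5-fold, and that of 26 varied more than 2-fold. The 26 include Eif3j1 and Eif3j2, whose symbols do not name the same entry in every table. Eif4g2 had a mean of 48.3 FPKM in the RefSeq table and 679 in the Ensembl table, and Eif4a2 had 17.1 and 428. These are sums over 2 and 15 transcripts for Eif4g2 and over 4 and 23 for Eif4a2. The counts of Eif4a2 differed too. They were 1540 and 1226 in Em+ and 1741 and 1736 in Em- in the RefSeq table. In the Ensembl table they were 10267 and 8558 in Em+ and 11209 and 11672 in Em-. The ratio of Eif4a1 to Eif4a2 was thus 6.51 in the RefSeq table and 1.03 in the Ensembl table. The log2 fold changes differed less between these 2 tables. Of the 50 members tested in both, 48 kept the sign of the log2 fold change, and the value moved by at most 0.19, in Eif2ak1. Both tables count the same 4 libraries, and for some members, such as Eif3a, Eif3b and Eif4b, the counts were the same. For such members the kept sign was fixed in advance and is no separate evidence.

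**Figure D4:**
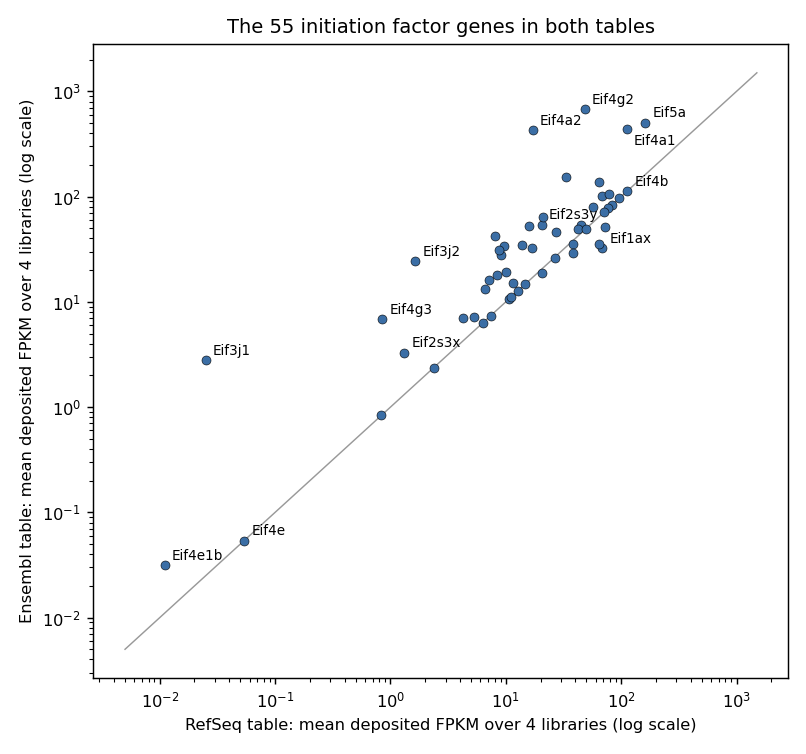
Mean deposited FPKM over the 4 libraries of each of the 55 initiation factor genes in the RefSeq table (horizontal) and the Ensembl table (vertical), both on log scales, with the line of equality. Eif4g2, Eif4a2, Eif3j1 and Eif3j2 lie more than 10-fold above the line, and Eif4e lies near 0.05 in both tables. For Eif3j1 and Eif3j2 the tables may not list the same entry under the symbol.

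Other parts of the translation apparatus were taken from lists beside the members. Of 29 genes listed under elongation and termination, 27 were tested, and edgeR, DESeq2 and limma called none. By edgeR, 4.64% of all genes tested were called. The list also holds Mtif2 and Mtif3, for mitochondrial initiation, and the modifying enzymes Dhps, Dohh, Dph1, Dph2 and Dph5. At an unadjusted p under 0.05 edgeR counted 0 higher and 2 lower (Eef1b2 and Eef1d, subunits of the exchange factor of eEF1A), against 14.5% and 10.7% of all genes tested. Eef1a1, which delivers tRNA to the ribosome and is the most abundant, had 1360 and 1144 scaled FPKM in Em+ and 1462 and 1504 in Em- (log2 fold change -0.24, SE 0.14, adjusted p 0.313). Of 41 further regulators of initiation, 40 were tested, and edgeR, DESeq2 and limma called none, against the same 4.64% by edgeR. At an unadjusted p under 0.05, 4 were higher (Abcf3, Ddx6, Ppp1r15a and Rptor) and 1 lower (Impact, an inhibitor of GCN2). The shares over all genes tested were 14.5% higher and 10.7% lower. The most abundant, the helicase gene Ddx3x, had 73.4 and 69.4 scaled FPKM in Em+ and 70.6 and 71.1 in Em- (log2 fold change 0.01, adjusted p 0.944).

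Of the genes of the integrated stress response, which the eIF2 kinases start, a few were lower in Em+. Of 34 listed, 30 were tested and 6.67% were called. Of all genes tested, 4.64% were called, with 3.82% higher and 0.822% lower. In the list 2 fell and none rose. The 2 were Ddit3, which codes for the transcription factor CHOP, and Slc7a3, a transporter of cationic amino acids. Ddit3 had 26.5 and 23.6 scaled FPKM in Em+ and 32.3 and 35.0 in Em-, a log2 fold change of -0.43 (SE 0.09, 95% interval -0.64 to -0.22, adjusted p 0.0424). Slc7a3 had 14.4 and 13.2 scaled FPKM in Em+ and 18.3 and 18.4 in Em-, a log2 fold change of -0.41 (SE 0.08, adjusted p 0.0264). In both genes the groups did not overlap. Without Em- replicate 2 neither was called (adjusted p 0.145 for Ddit3 and 0.177 for Slc7a3), and without Em- replicate 1 only Ddit3 was (0.0270, against 0.176 for Slc7a3). Neither was called with limma, and Ddit3 was not called in the known-gene and Ensembl tables either (adjusted p 0.0507 and 0.331).

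Most other genes of this list had negative values that did not pass the test. The list had 23 negative and 7 positive log2 fold changes, with a median of -0.13. Both Em+ libraries lay below both Em- libraries for 20 of the 30, against 29.6% of all genes tested. At an unadjusted p under 0.05, 13 were lower and 1, Atf3, was higher, against 10.7% lower and 14.5% higher of all genes tested. Atf4, the transcription factor of the response, had 74.7 and 65.0 scaled FPKM in Em+ and 83.7 and 82.2 in Em- (log2 fold change -0.25, SE 0.08, adjusted p 0.121). Its control is mainly at translation, which RNA levels do not show. Asns, asparagine synthetase and the most abundant member not called, had 94.5 and 84.1 scaled FPKM in Em+ and 83.7 and 87.0 in Em-, which overlap (log2 fold change 0.07, adjusted p 0.625).

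**Figure D5:**
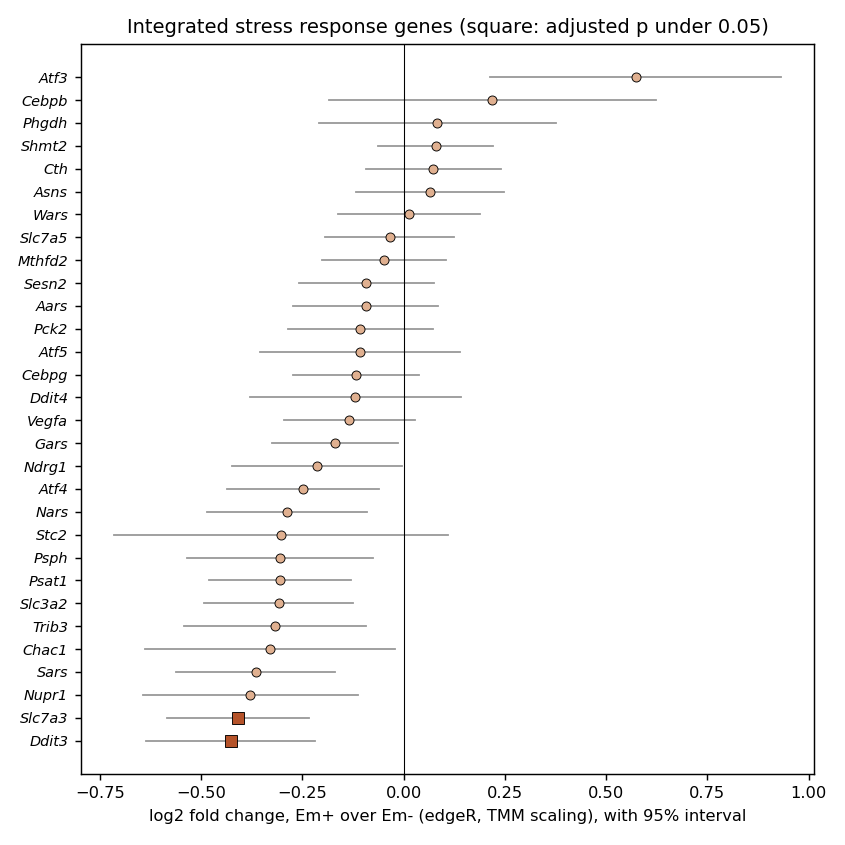
Log2 fold change of Em+ over Em- for the 30 integrated stress response genes tested, each with its 95% interval from edgeR, ordered by value. Ddit3 and Slc7a3, the squares at the bottom, have an adjusted p under 0.05, and 23 of the 30 points lie below zero.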

How the data were processed

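Levels were measured by total RNA sequencing in 2 Em+ and 2 Em- libraries. The authors deposited raw counts and FPKM per transcript in 4 tables, per the file headers. The submitters' processing notes name Bowtie2 and mm10. For the counting program, its use of strand and reads with several matches, details were not given in the sources used here. In the RefSeq and Ensembl tables Em- replicate 1 has FPKM but a count of 0 throughout, so its counts there were computed from FPKM, length and library total. In the libraries with both columns this returned the deposited count for 99.95 to 99.97% of 24538 RefSeq transcripts.

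Counts and FPKM were summed per symbol in the RefSeq table, where 13 members have more than 1 transcript. Genes whose mean FPKM reached 1, 12050 in number, entered a two-sided test by edgeR 4.0.16 (R 4.3.3) with glmQLFTest, TMM scaling and no covariate, and p-values were adjusted over all of them by Benjamini-Hochberg. The SE comes from the F statistic. Total counts were 43.4% of the library total behind FPKM in Em+ replicate 2, against 49.0% in Em+ replicate 1. They were 51.1 and 50.7% in Em- replicates 1 and 2. With 2 libraries against 2, an exact permutation test of a single gene cannot go below 0.333. The members, the lists and the tests were chosen with earlier results of these data known. The members named with full values are those called, the most abundant and the most different in each factor, the pair Eif2s3x and Eif2s3y, and Eif1a and Eif1ad, with others added after their values were seen. The tests were tried on simulated data first. Alternatives were DESeq2 1.42.0, limma 3.58.1, other scalings, filters and tables, a replicate block and leaving out each library.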

Additional observations from a re-analysis of the deposited data

How the results depend on the processing

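Of the 50 members tested, 36 kept their sign under every alternative run, and the largest log2 fold change among the others was 0.26 (Eif4ebp2). The count of all genes called, 559, became 1247 with the filterByExpr rule, 1178 with no filter, and 269 and 293 with limma on log2(FPKM + 0.1) and log2(FPKM + 1). Leaving out 1 library gave 490 to 4992, the highest without Em+ replicate 1. The count of members called, 1, became 0 with the Ensembl and known-gene tables, with the library totals behind FPKM and with both limma fits, and ranged from 0 to 27 on leaving out 1 library. With DESeq2 it was also 1, but Eif4g2 in place of Eif2ak1. Elongation and termination genes gave 0 to 10 calls and other regulators 0 to 15 on leaving out 1 library. Calls among stress response genes, 2, became 5 with DESeq2, filterByExpr and no filter, 4 with the library totals behind FPKM, 1 with the Ensembl and known-gene tables and 0 with both limma fits, and ranged from 0 to 16 on leaving out 1 library. The cause was not tested. Eif4e, Eif4e1b and Eif3j1 had at most 9 counts in any RefSeq library, and no fold is given for them.

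Deviations of same-numbered libraries correlated at 0.016 over genes. With 2 libraries per group, this value cannot settle whether same-numbered libraries were paired by culture or sort. With the replicate block, 1552 genes, 3 members (Eif2ak1 and Eif4g2 higher, Eif1ax lower), 2 other regulators and 10 stress response genes were called.

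Scaling by the totals behind FPKM moved the median of all genes by -0.16, and limma by -0.16 with 0.1 and -0.14 with 1 added; member values under these are relative to that median.

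By setting, the log2 fold changes that changed sign, all near zero, were as follows. With no filter Eif2d (-0.019), Eif2b1 (-0.058), Eif2b3 (-0.055), Eif2b5 (-0.021), Eif3j2 (-0.057), Eif5 (-0.0079), Ddx3x (-0.048). With DESeq2 Eif2b1 (-0.00011). In the Ensembl table Eif2b1 (-0.012), Eif3j2 (-0.025). With RLE size factors Eif2b1 (-3.3e-05). With filterByExpr Eif2b1 (-0.038), Eif2b3 (-0.035), Eif2b5 (-0.0014), Eif3j2 (-0.036), Ddx3x (-0.028). In the known-gene table Eif2b1 (-0.0083), Eif2b3 (-0.056), Eif3j2 (-0.051), Ddx3x (-0.00011). With limma and 0.1 added Eif2b1 (-0.0038), Eif3j2 (-0.00033). With limma and 1 added Eif2b1 (-0.018), Eif2b3 (-0.0073), Ddx3x (-0.017). With the replicate block Eif2b1 (-0.00011). With total counts Eif2b1 (-0.015), Eif2b3 (-0.013), Eif3j2 (-0.016), Ddx3x (-0.0061). With the FPKM totals Eif3j2 (-0.010). The Eif3j2 values of the Ensembl and known-gene tables come from entries with other counts than the RefSeq entry of that name.

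On leaving out 1 library, the range was Eif2b1 -0.060 to 0.057, Eif2b3 -0.030 to 0.034, Eif2b5 -0.050 to 0.12, Eif3b -0.021 to 0.15, Eif3d -0.25 to 0.011, Eif3f -0.048 to 0.37, Eif3j2 -0.24 to 0.22, Eif4a1 -0.099 to 0.037, Eif4a3 -0.14 to 0.0035, Eif4e2 -0.044 to 0.22, Eif4ebp1 -0.18 to 0.0082, Eif4ebp2 -0.027 to 0.50, Eif5 -0.028 to 0.13, Asns -0.021 to 0.15, Ddx3x -0.030 to 0.048.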
